A study of Homo sapiens with 8 samples.

Results

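Among the H3K36me3 peaks of HepG2 cells carrying a control shRNA, 441 were strongly enriched and yet had no peak over them in cells carrying an shRNA against SETD2. They were chosen from the deposited control table as peaks whose fold enrichment was at least 8 and whose length was under 20000 bp that no peak of the knockdown table overlapped by even 1 bp. Of the 35375 control peaks, 4852 met the limits of enrichment and length. Of these 4852, 9.09% had no knockdown peak (441 peaks, exact Clopper-Pearson 95% interval 8.29 to 9.93%), and the other 4411 were overlapped. Over all control peaks the share without a knockdown peak was 60.5%. The rule used this overlap, so these shares describe the choice and test nothing.

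H3K36me3 is trimethylation of lysine 36 on histone H3. In human cells SETD2 places it while travelling with elongating RNA polymerase II, so the mark covers the bodies of transcribed genes and tends to grow denser away from their starts. SETD2 is the main enzyme that makes the trimethylated form, whereas other enzymes make the lower methylated forms.

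HepG2 is a human liver cancer line with an abnormal karyotype. The study held 8 libraries in 4 groups, each with 2 replicates: input DNA and H3K36me3 immunoprecipitate of cells stably expressing a SETD2 shRNA, and the same pair of cells stably expressing a non-specific shRNA. Both kinds of cell had been infected with lentivirus in 4 µg/mL polybrene and selected in 1 µg/mL puromycin. The authors merged the replicates before calling peaks, so each condition had 1 list. Neither a spread between replicates nor a test of one condition against the other could be had. The knockdown immunoprecipitate held 67053273 tags after removal of duplicates, and the control immunoprecipitate 47880817, so the list that lacked these peaks came from the deeper library. Levels of SETD2 itself were not analysed here. Positions are in hg19. No gene was assigned to a peak and no sequence is shown, because a genome and gene annotation of that build were not used here.

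The 441 peaks covered 3.92 Mb, which is 7.80% of the length of the 4852 strong peaks, and held 400811 control tags. Their median length was 7.75 kb (quartiles 4.53 and 13.0 kb) and their median tag count was 599 (quartiles 327 and 1212). Their tag density, given throughout as tags per kb for each 1000000 filtered tags of the same library, had a median of 1.60 and ran from 1.02 to 6.57. The overlapped strong peaks were longer and stronger taken as a whole, with a median length of 10.1 kb, a median of 939 tags and a median density of 1.85. The authors' caller had given an estimated false discovery rate (FDR) no higher than 5% to 427 of the 441 peaks (96.8%), against 50.5% of all control peaks, and to 99.4% of the overlapped strong peaks. The FDR rests on the same tags as the fold enrichment of the rule.

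Lack of a knockdown peak was commonest at the lower limit of enrichment and among short peaks. At a fold enrichment of 8 to 9, 15.6% of peaks had no knockdown peak (207 of 1324, 95% interval 13.7 to 17.7%), at 12 to 14 it was 5.19% (32 of 616, 3.58 to 7.25%), and at 20 or more it was 1.02% (2 of 196, 0.12 to 3.64%). By length, the share was 47.1% under 2 kb (16 of 34, 29.8 to 64.9%), 16.01% at 3 to 5 kb (85 of 531, 13.0 to 19.4%) and 6.37% at 10 to 15 kb (93 of 1459, 5.18 to 7.75%). It was not lower again in the longest class, at 7.63% from 15 to 20 kb (71 of 931, 6.004 to 9.52%). Longer peaks are also easier to touch by 1 bp.

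Against the number of tags the share fell and then turned. It was 40.6% at up to 200 tags (43 of 106, 31.1 to 50.5%), 8.29% at 501 to 750 (74 of 893, 6.56 to 10.3%) and lowest at 751 to 1000, with 4.04% (32 of 793, 2.78 to 5.65%). From there it was 5.19% at 1001 to 1500 tags, 7.96% at 1501 to 2000 (46 of 578, 5.89 to 10.5%) and 11.5% above 3000 (15 of 130, 6.60 to 18.3%). The interval above 3000 tags lies clear of that at 751 to 1000 tags, though both cover counting error only.

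**Figure D1:**
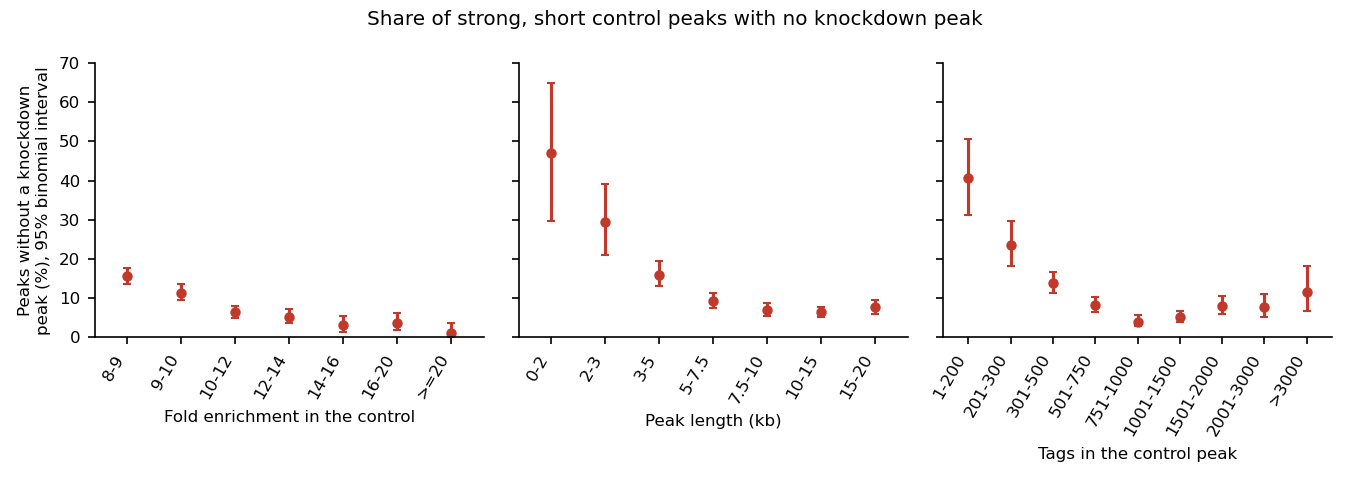
Share of strong, short control peaks with no knockdown peak (y axis, percent, with exact 95% binomial intervals) by classes of fold enrichment, of length in kb and of tags (x axes). The share is lower in each class of enrichment up to 14 to 16 and in each class of length up to 10 to 15 kb, while against tags it is lowest at 751 to 1000 (4.04%) and 11.5% above 3000.

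At the limit of enrichment, the 3 peaks just inside had a fold enrichment of 8.01 each. They lay on chromosome 12 from 100457754 to 100467438 (637 tags), on chromosome 16 from 2568626 to 2570564 (121 tags) and on chromosome 21 from 43172444 to 43177703 (344 tags). The 3 peaks without a knockdown peak just outside had values of 7.99, 7.99 and 7.98. They lay on chromosome 6 from 52265814 to 52271978 (582 tags) and from 138726307 to 138736236 (1178 tags), and on chromosome 13 from 37445481 to 37447667 (140 tags). At the limit of length, 302 of 1917 peaks of 20000 bp or more with the same enrichment had no knockdown peak either (15.8%), and the shortest of them was 20117 bp long, on chromosome 16 from 14015505 to 14035621.

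Of the 10 peaks with the highest fold enrichment, 7 were long domains of 13.4 to 19.3 kb and 3 were peaks of 7 kb or less. The highest fold enrichment was 22.44, on chromosome 12 from 46586373 to 46604062, a peak of 17.7 kb with 2868 tags and a density of 3.39 (Poisson 95% interval 3.26 to 3.51). The nearest knockdown peak lay 148169 bp away, although knockdown peaks covered 185 kb within 500 kb of its edges and control peaks 209 kb. Next came a peak on chromosome 10 from 27446445 to 27460525, enriched 20.55-fold, with 2042 tags and a density of 3.03 (2.90 to 3.16). Here a knockdown peak of 3.08 kb began 707 bp beyond its edge, with a density of 0.774.

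The next in order lay in an almost empty stretch. It ran on chromosome 11 from 69456403 to 69469777 and was enriched 19.08-fold, with 2448 tags and a density of 3.82 (3.67 to 3.98). Knockdown peaks covered 0 kb within 500 kb of it and control peaks other than itself 9.07 kb. The following pair were on chromosome 9 from 99519897 to 99539188 (18.79, density 2.96) and on chromosome 17 from 79651717 to 79670072 (18.22, density 3.32). The first of these had a knockdown peak 40192 bp away and the other 10085 bp away.

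Of the other 5 among the highest 10, 3 were short. They lay on chromosome 22 from 36660633 to 36664015 (17.84, 361 tags), on chromosome 3 from 52262374 to 52267344 (17.07, 522 tags) and on chromosome 5 from 138885622 to 138892621 (16.88, 696 tags). Their densities were 2.23, 2.19 and 2.08. The remaining pair were among the densest of all 441. On chromosome 17 from 38444965 to 38461226 the fold enrichment was 16.66 with 3706 tags and a density of 4.76 (4.61 to 4.92), and the nearest knockdown peak was 7633 bp away.

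The peak with the most tags was on chromosome 2 from 15733333 to 15751488. It held 5712 tags over 18.2 kb, a fold enrichment of 17.84 and a density of 6.57 (6.40 to 6.74), the highest of the 441. Its nearest knockdown peak lay 78835 bp away, and within 500 kb knockdown peaks covered 20.8 kb against 258 kb covered by control peaks. Of the next 4 by tags, 1 was on chromosome 20 and 3 were on chromosome 17. The one on chromosome 20, from 60698190 to 60717750, held 5322 tags at a density of 5.68 (5.53 to 5.84), with a knockdown peak 8953 bp away. Those on chromosome 17 ran from 64206407 to 64225304 (4468 tags, density 4.94), from 53343060 to 53362934 (4401 tags, density 4.62) and from 38783890 to 38803264 (3910 tags, density 4.21). The first and the last of these stood apart from any knockdown peak by 76684 and 128625 bp.

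The tags of the knockdown library at these places are not part of a peak list, so the knockdown density there is unknown and no ratio can be formed. What the lists do give is the density at which knockdown peaks of the same length were called. In the class of 15 to 20 kb the 473 knockdown peaks had a median density of 1.399 and a 5th percentile of 1.05, while the 71 control peaks without a counterpart had a median of 2.33 and a range of 1.35 to 6.57. In the class of 3 to 5 kb the 5911 knockdown peaks had a median of 0.936 and a 5th percentile of 0.775, and the 85 control peaks without a counterpart a median of 1.43. Of all 441 peaks, 438 were denser in the control library than the median knockdown peak of their length class. The rule kept only control peaks of high fold enrichment, while knockdown peaks of any enrichment enter that median, so this count largely follows from the choice. Overlapped strong peaks were not counted in this way, and those of the same classes had a median density of 1.66, against 1.60 in the 441. The density was a median of 1.88 times the 5th percentile of that class (quartiles 1.65 and 2.32), and over 3 times in 52 peaks. Densities come from libraries with different backgrounds, so these ratios are not the loss needed for a peak to go uncalled.

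**Figure D2:**
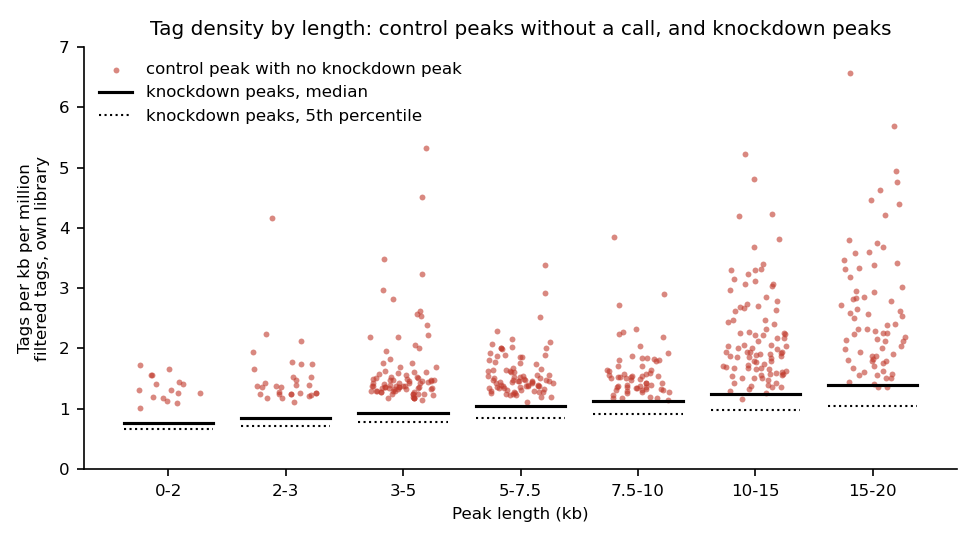
Tag density (y axis, tags per kb for each 1000000 filtered tags of the peak's own library) by classes of peak length in kb (x axis). Points are the 441 control peaks without a knockdown peak, at their control density and spread sideways for sight only. The solid lines are the medians and the dotted lines the 5th percentiles of all knockdown peaks of the class, of any fold enrichment. Of the points, 438 lie above the solid line, and all were chosen for a fold enrichment of at least 8.

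Compared with overlapped peaks of like enrichment and length, the 441 peaks were close in tags and density at the median, with a heavier upper tail. Their median score was somewhat lower, though not clearly so under each setting. For this comparison the 4411 overlapped peaks were weighted so that their 7 classes of fold enrichment crossed with 7 classes of length held the same shares as the 441. The median was then 599 tags in peaks without a counterpart (95% interval of the median 516 to 676) and 625 in overlapped peaks. The median density was 1.60 (1.54 to 1.66) and 1.66, and the median score, minus 10 times the log10 of the caller's p-value, was 1093.05 (985.85 to 1165.76) and 1182.21. The interval of the score leaves out the overlapped value, while those of tags and density include it. As a ratio to the overlapped median, the score interval took in 1 with finer classes (0.854 to 1.005) and with a control FDR of 5% or less (0.841 to 1.002). It also did so at a fold enrichment of 10 or more (0.821 to 1.098). It stayed below 1 without weighting and with no knockdown peak within 5000 bp. No error of the overlapped median enters these intervals. Quartiles of the score were 674.13 and 1694.64 in the 441 and 766.38 and 1822.98 in overlapped peaks. The 95th percentile of tags was 2758, against 1979 in overlapped peaks, and that of density was 3.59 against 2.89. The summit lay near the middle of the peak in both, at a median of 49.7% and 50.5% of the length. Tags and score come from the same libraries as the enrichment of the rule, so no test applies.

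Scores rose with tags among the smaller peaks and scattered among the larger ones. A score under 500 was given to 46 of the 190 peaks with 500 tags or fewer (24.2%), to 10 of the 164 with 501 to 1500 tags (6.10%) and to 7 of the 87 with more than 1500 tags (8.05%). In the same tag groups of overlapped peaks, scores under 500 made up 7.60%, 3.68% and 2.09%, though these had higher fold enrichments, with medians of 8.97, 10.17 and 14.31, against 8.63, 9.37 and 11.4 in those without a counterpart. Weighted to the same classes of enrichment and length, scores under 500 made up 14.3% of the 441 (11.2 to 17.9%) and 10.2% of overlapped peaks. The lowest score among peaks without a counterpart and over 2000 tags was 129.86.

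In the knockdown list, whose lowest score was 50, some peaks with many tags came close to the calling limit when peaks of any length were counted. Among knockdown peaks at least 5-fold enriched, a score under 100 was found in 14 of 1537 with 500 tags or fewer (0.911%), in 27 of 1854 with 501 to 1500 (1.46%) and in 63 of 744 with more than 1500 (8.47%, 6.57 to 10.7%). Among control peaks at least 8-fold enriched they were 0.0994%, 0.247% and 3.03% (89 of 2933) in the same order of tags. The limits of enrichment and the depths of the libraries differ, so these shares do not compare the lists with each other. Whether knockdown peaks with many tags fell under the limit at the places described here was not tested.

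**Figure D3:**
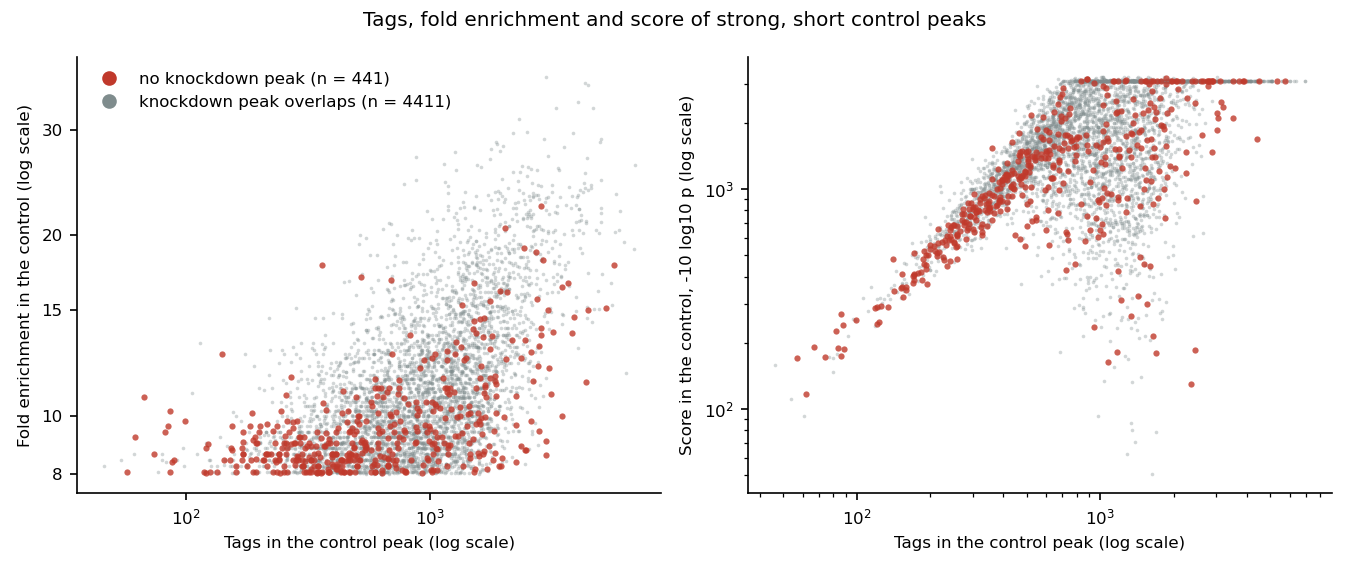
Tags in the control peak (x axes, log scale) against fold enrichment and against score (y axes, log scale) for the 441 strong control peaks without a knockdown peak (red) and the 4411 overlapped ones (grey). Above about 1000 tags the red points lie towards the lower edge of the fold enrichment, and scores of both kinds of peak scatter widely, up to 3206.9 and 3230.05.

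The 87 peaks with more than 1500 tags were less enriched than overlapped peaks with as many tags. Their median density was 2.82, as was that of the 956 overlapped peaks in this tag group, but their median fold enrichment was 11.4 against 14.31. The rule used fold enrichment, so this describes the peaks.

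By chromosome, peaks without a counterpart were most frequent on chromosomes 20 and 6 and least frequent on chromosome 5, among chromosomes 1 to 22 and X. Chromosome Y, with 3 strong peaks of which 1 had no counterpart, was left out of this comparison. On chromosome 20, 14 of 61 strong peaks had no knockdown peak (22.95%, 95% interval 13.2 to 35.5%), against 4.72 that its classes of enrichment and length would give, a ratio of 2.97 (Poisson 95% interval 1.62 to 4.98). On chromosome 6 there were 25 of 147 (17.01%, ratio 2.08, 1.35 to 3.07), and on chromosome 2 there were 25 of 202 (12.4%, ratio 1.57, 1.02 to 2.32). On chromosome 5 there were 10 of 246 (4.07%, ratio 0.426, 0.204 to 0.783). These 4 were the ones, of 23 chromosomes, whose interval left out a ratio of 1, before any allowance for looking at 23. The median share over the 23 was 9.32% (SD 4.24 between chromosomes), and chromosome 19 stood at 7.23% (31 of 429) and chromosome 1 at 7.85% (42 of 535).

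**Figure D4:**
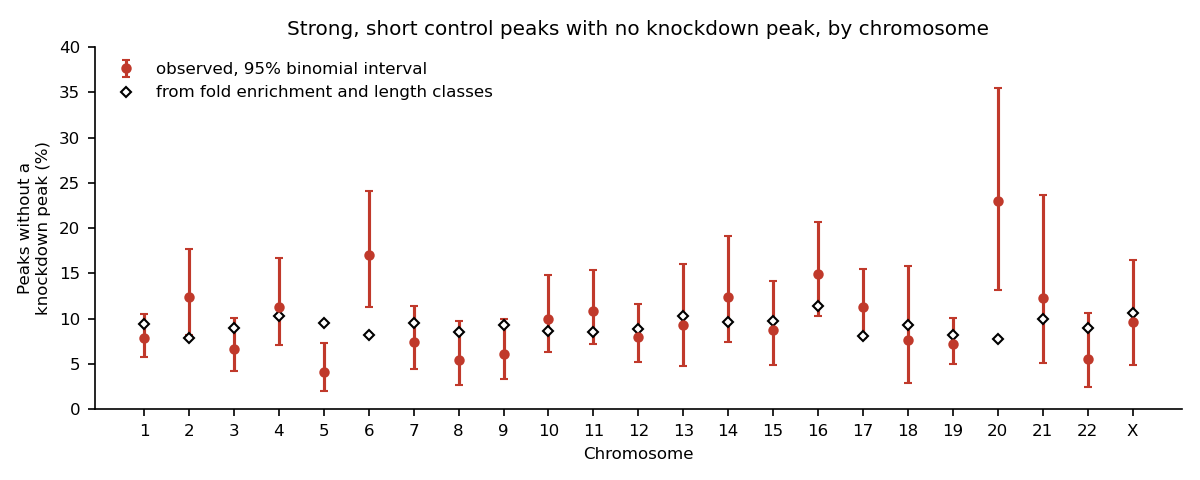
Share of strong, short control peaks with no knockdown peak (y axis, percent) on chromosomes 1 to 22 and X (x axis). Circles with bars are the observed shares with exact 95% binomial intervals, and diamonds are the shares that the classes of fold enrichment and length on each chromosome would give; chromosomes 20, 6 and 2 stand above their diamonds and chromosome 5 below.

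Chromosomes 2, 14, 16, 17 and 20 are known to be present in extra copies in HepG2 cells. Together they held 119 peaks without a counterpart among 894 strong peaks (13.3%, 11.2 to 15.7%), and all other chromosomes 322 among 3958 (8.14%, 7.30 to 9.03%). Against the counts that classes of enrichment and length would give, the ratio was 1.48 (1.23 to 1.77) and 0.893 (0.798 to 0.996). Without chromosome 20 the share on the extra-copy chromosomes was 12.6% (105 of 833). Whether the difference varied with tags was not tested. Of peaks with more than 1500 tags, 14.98% on these 5 chromosomes had no knockdown peak (46 of 307, 11.2 to 19.5%), against 5.57% on all others (41 of 736, 4.03 to 7.48%). On chromosome 6, looked at because its share was high, the value was 21.0% (13 of 62, 11.7 to 33.2%). These shares by tags were not matched for fold enrichment. Above 1500 tags, over all chromosomes, the share was 21.4% at 8 to 10-fold and 6.24% at 10-fold or more.

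The share at 500 tags or fewer, at 501 to 1500 and above 1500 was 26.9%, 8.17% and 14.98% on the 5 extra-copy chromosomes, and 17.7%, 5.40% and 5.57% on all others. Chromosome 6 is among the others, and leaving it out, a choice made because its share was high, gave 17.4%, 5.23% and 4.15%. Copy number and the other properties of these chromosomes cannot be told apart here. On chromosome 6, the share was 17.5% of peaks ending below 45 Mb (14 of 80) and 16.4% of those beyond (11 of 67).

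Peaks without a counterpart lay farther from other knockdown peaks than overlapped peaks did from theirs. Knockdown peaks that touched a peak were left out, and the gap was measured to the nearest of the rest. The median gap was 15.8 kb for the 441 (95% interval of the median 12.8 to 19.8 kb) and 7.33 kb for overlapped peaks of the same enrichment and length, a ratio of 2.15. Another knockdown peak lay within 5 kb of 97 of the 441 (21.996%, 18.2 to 26.2%) and of 39.99% of the weighted overlapped peaks. It was over 100 kb away for 66 of the 441 (14.97%, 11.8 to 18.6%) and for 7.15% of the weighted overlapped peaks.

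The length covered by other knockdown peaks was lower around the 441 than around overlapped peaks. That covered by other control peaks was close in value. Knockdown peaks that touched an overlapped peak were left out, so the values around overlapped peaks are not the whole knockdown cover there. Within 10 kb of the edges, knockdown peaks covered 8.48% of bases around peaks without a counterpart and 14.5% around weighted overlapped peaks, while control peaks covered 34.9% and 35.1%. From 50 to 100 kb the knockdown values were 9.47% and 10.9%, and the control values 21.7% and 21.5%. Over 500 kb to either side, the median length covered by knockdown peaks was 74.4 kb against 81.6 kb, and that covered by control peaks 175 kb against 169 kb. The median number of other control peaks within 50 kb was 5 in both. The nearest other control peak was farther from the 441 peaks, at a median of 1.77 kb (95% interval of the median 1.32 to 2.11 kb), against 1.24 kb for weighted overlapped peaks.

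**Figure D5:**
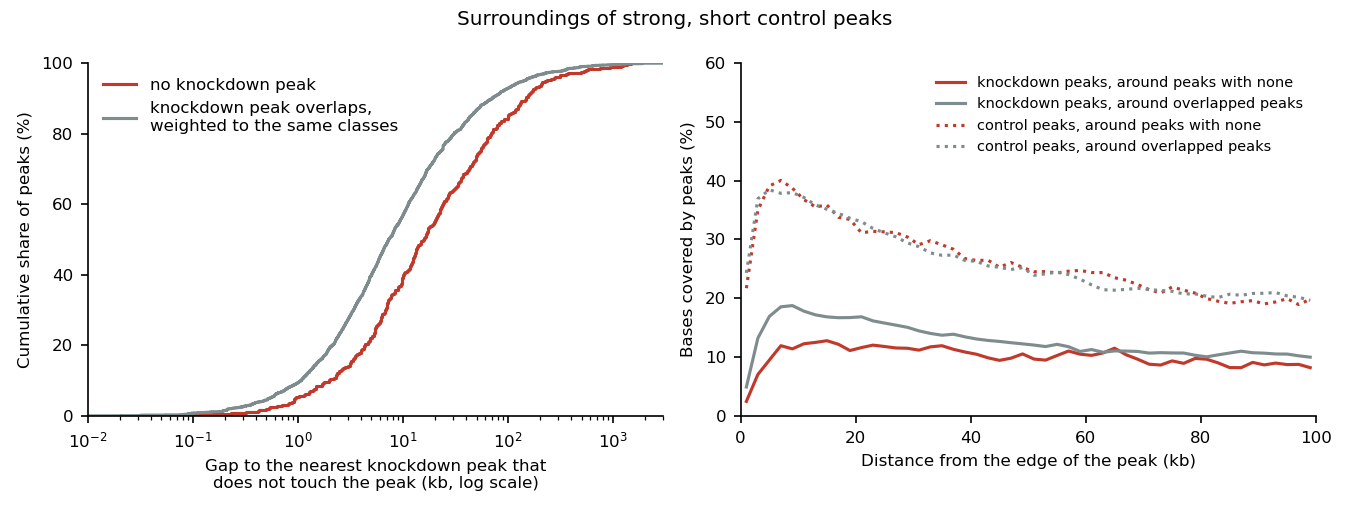
Left, cumulative share of peaks (y axis, percent) by the gap to the nearest knockdown peak that does not touch them (x axis, kb, log scale), for the 441 peaks without a knockdown peak (red, median 15.8 kb) and the overlapped peaks weighted to the same classes (grey, median 7.33 kb). Right, percent of bases covered by other knockdown peaks (solid) or other control peaks (dotted) by distance from the edge of the peak in kb; the solid red line runs below the solid grey one near the edge, and the dotted lines lie together.

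The control peaks next to the 441 were less often touched in the knockdown list than those next to overlapped peaks. Of the control peaks next to one of the 441 on either side, 317 of 881 were touched by a knockdown peak (36.0%, 32.8 to 39.3%). For overlapped peaks of the same classes it was 47.2%, counting knockdown peaks that did not touch the overlapped peak itself. Of all control peaks, 60.5% had no knockdown peak, so the neighbours of the 441 were near the share over all. The neighbours were not matched for their own enrichment or length. Neither neighbour was touched for 183 of the 441 (41.5%), and for 29.9% of the weighted overlapped peaks. When control peaks within 3000 bp of each other were joined into domains, 170 of the 441 stood alone (38.5%, 34.0 to 43.3%), against 33.7% of the weighted overlapped peaks. A further 120 shared a domain of 2 or more peaks in which no peak was touched, and 151 (34.2%, 29.8 to 38.9%) belonged to a domain that a knockdown peak touched elsewhere.

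The 3 smallest gaps show the edge of the rule. On chromosome 1 from 145366348 to 145367987, a peak of 1.64 kb with 86 tags and an FDR of 6.6%, a knockdown peak began 51 bp away. On chromosome 8 from 129080223 to 129099773, a peak of 19.6 kb with 1750 tags and a density of 1.87 (1.78 to 1.96), the knockdown peak next to it lay 108 bp away with a density of 0.964. On chromosome 22 from 37895046 to 37898128, with 240 tags, the gap was 155 bp. Of the 441, 24 lay within 1 kb of a knockdown peak (5.44%) and 97 within 5 kb (21.996%). A knockdown peak that did not touch them lay as near to 9.41% and 39.99% of the weighted overlapped peaks. Among overlapped peaks, 8 of 4411 were covered by knockdown peaks over less than 10% of their length, and the median cover was 73.4% (quartiles 51.9 and 89.7%).

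The 5 largest gaps were on chromosomes X and 20. The largest, 1467666 bp, belonged to a peak on chromosome X from 51637722 to 51645475 with 833 tags, a fold enrichment of 13.62 and a density of 2.24 (2.09 to 2.40), around which no other control peak lay within 500 kb. On chromosome 20 from 22560184 to 22564565 a peak of only 4.38 kb held 947 tags at a density of 4.51 (4.23 to 4.81), and the nearest knockdown peak was 1346087 bp away. The other 3 were on chromosome X, from 50155103 to 50168213, enriched 10.93-fold with 1265 tags, and a neighbouring pair from 57002570 to 57005324 and from 57008717 to 57011488, with 189 and 160 tags. Of the 11 peaks without a counterpart on chromosome X, 6 lay over 500 kb from a knockdown peak. Knockdown peaks covered only 1.65 Mb of this chromosome, and the gaps of its overlapped peaks were not counted apart. Over all chromosomes, 11 of the 441 (2.49%) and 50 of the 4411 overlapped peaks (1.13%) were over 500 kb from a knockdown peak that did not touch them. The largest gap of all, 6846 kb, belonged to an overlapped peak.

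The 441 peaks fell into 350 windows of 1 Mb, of which 277 held 1 of them and 59 held 2. How many windows as many overlapped peaks would fill was not counted, so this gives no measure of grouping. The window with most was on chromosome 17 from 79000001 to 80000000, where 5 of 17 strong peaks had no counterpart. These 5 held 7120 tags, with densities from 1.93 to 3.86, although 20 knockdown peaks lay in the same window. Chromosome 19 had the next, from 18000001 to 19000000 (4 of 10 strong peaks) and from 37000001 to 38000000 (4 of 14). In the last of these the densities were 1.36 to 1.80, and 27 knockdown peaks lay in the window.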

How the data were processed

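H3K36me3 ChIP-seq was analysed from the authors' peak tables. Per the submitters' processing notes, the build was hg19, with Bowtie 1.1.2 and FastQC 0.11.5. MACS 1.4.2 called the peaks, per the file headers, from merged immunoprecipitate against merged input tags, with a p-value limit of 1e-05, 1 duplicate tag per position and a local background over 1000 and 10000 bp. The deposited tag counts are whole tags per peak, not normalized. The deposited fold enrichment is a ratio of immunoprecipitate over local background, and the deposited score is the log10 of the caller's p-value multiplied by minus 10. The deposited FDR is in percent. Filtered input tags were 69095038 in the knockdown and 67158956 in the control. The shorter deposited lists held exactly the 1244 knockdown and 17856 control peaks with an FDR of 5% or less.

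Overlaps, gaps (bp between edges), classes, weights and exact or Poisson 95% intervals were computed with SciPy 1.17.1, NumPy 2.4.6 and pandas 2.3.3 in Python 3.11.15, plotted with matplotlib 3.10.9 and tested on simulated intervals. Intervals cover counting error only, and neither peaks nor chromosomes are replicates, so no p-value was computed. The sources used here do not say whether the replicates were separate cultures. The peaks, classes and chromosome groups were chosen with earlier results of these data known. Named peaks were the 10 highest in fold enrichment, the 5 with most tags, the 5 largest and 3 smallest gaps, 3 on either side of the limit, and the 3 windows with most peaks. The position of peaks in genes was planned and not run, for want of hg19 annotation here.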

Additional observations from a re-analysis of the deposited data

How the results depend on the processing

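The share of strong control peaks without a knockdown peak, 9.09%, depended on the limits. It was 21.98% at a fold enrichment of 6 or more, 4.89% at 10 and 3.79% at 12. With lengths under 10000 bp it was 11.3%, and with no limit of length 10.98%. It was 7.09% when no knockdown peak could lie within 5000 bp, and 29.97% when knockdown peaks had to cover 50% or more of the control peak. Against knockdown peaks with a score of 100 or more it was 17.1%, and against those with an FDR of 5% or less 83.8%, where fewer knockdown peaks enter. It kept within its interval with no knockdown peak within 1000 bp, with a control FDR of 5% or less and on chromosomes 1 to 22.

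Set over overlapped peaks of the same enrichment and length, the medians of the 441 peaks stood at ratios of 0.958 for tags, 0.925 for score and 0.966 for density. Without weighting by class these were 0.638, 0.640 and 0.866, since overlapped peaks were then longer and stronger. At a fold enrichment of 10 or more they were 1.096, 0.990 and 1.067, so the sides of 1 changed for tags and density. The ratio of the gap to a knockdown peak that does not touch, 2.15, was 3.31 at a fold enrichment of 10 or more and 3.25 with no knockdown peak within 5000 bp, which had to raise it, since that setting drops peaks with small gaps from the 441 and leaves the overlapped peaks as they were. The ratio for control neighbours within 50 kb was 1 and became 0.75 at a fold enrichment of 10 or more. The ratio for knockdown cover within 500 kb, 0.912, kept within its interval under each of its 5 alternatives.

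No paired analysis was possible because the authors merged the replicates of a group ahead of peak calling. For the same reason no setting tried leaving out a replicate. No tags outside peaks were used, so the knockdown level at these places is unknown.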
